A study of Mus musculus with 2 samples.

Results

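The genes described are the cytosolic ribosomal protein genes of the mouse, those typed as protein-coding whose symbols follow the Rpl, Rps, Rplp and Rpsa names. There were 83 of them among the 24377 genes with a count in liver. They were measured in 2 pooled liver RNA samples of male C57BL/6J mice, 9 to 11 weeks old, that were fasted for 10 h and received 300 mg/kg acetaminophen (APAP) 30 h before sampling. In the vehicle pool, 8 mice had received 4 doses of vehicle. In the AZD7986 pool, 8 mice had received 5 mg/kg AZD7986, an orally given inhibitor of the protease cathepsin C, at -12, 0, 12 and 24 h relative to APAP. RNA of each group was mixed in equal shares and gave 1 library, so animals cannot be told apart, there is no replicate spread, and no test of the treatment was possible. Both groups received APAP, and a group without APAP was not analysed here.

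Every ribosome has a small 40S subunit, which reads the mRNA, and a large 60S subunit, which joins the amino acids and lets the new chain out through a tunnel. Each holds ribosomal RNA and one copy of most of its proteins, while the P stalk of the large subunit, which recruits the elongation factors, carries several copies of Rplp1 and Rplp2 on Rplp0. Messengers of these proteins begin with a pyrimidine tract, the TOP motif, through which mTORC1 adjusts their translation, a control that mRNA levels do not show. Hepatocytes, which secrete most plasma proteins, are rich in ribosomes.

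The vehicle library held 7657855 counts and the AZD7986 library 6700838, with duplicate molecules already removed. Counts were divided by size factors, and each ratio sets the AZD7986 pool over the vehicle pool on these normalized counts. The 95% interval in brackets is the exact binomial one and covers counting error only. Hepatocyte markers were high in both pools, at a summed level of 91478 and 85410 CPM (counts scaled to a common library total), with all 8 listed genes above 0. All 7 neutrophil markers found in the table summed to 122 CPM in the vehicle pool and 45.4 CPM in the AZD7986 pool, with Ly6g at 0 in the vehicle pool and Elane at 0 in the AZD7986 pool. The 7 monocyte and macrophage markers summed to 404 and 307 CPM, and the 4 biliary markers to 34.2 and 14.6 CPM, with none at 0. The 6 stellate cell markers summed to 333 and 264 CPM and the 5 endothelial markers to 128 and 109 CPM, also with none at 0. The 5 Kupffer cell markers summed to 357 and 336 CPM, the 4 erythroid markers to 1546 and 1484 CPM, and the 6 T, NK and B cell markers to 8.88 and 8.21 CPM, with 5 above 0 in each library. Mitochondrially encoded transcripts held 9.17% and 7.74% of counts. The part of these differences in the ratios below was not tested, and in bulk RNA fewer cells of a type and less RNA per cell cannot be told apart.

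Ribosomal protein genes come with many processed pseudogenes, copies of their messengers inserted elsewhere in the genome, and some copies are identical to the gene over the end of the coding sequence. The last coding bases of 4 genes and their most counted copies are shown because these genes and their families gave different ratios. They are taken from GENCODE M21 transcripts (mm10), read 5′ to 3′, and the stop codon at the end, where annotated, is not marked. Rpl23a lies at chr11:78180932-78183584 (minus strand) and Rpl23a-ps3 at chr14:34170655-34171122 (plus strand), and the annotation of the copy stops before the stop codon.
Rpl23a: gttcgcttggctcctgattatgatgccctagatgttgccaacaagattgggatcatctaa
Rpl23a-ps3: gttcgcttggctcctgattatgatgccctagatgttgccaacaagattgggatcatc
Rpl11 lies at chr4:136028265-136053428 (minus strand) and its copy Gm10288 at chr3:146838811-146839347 (minus strand).
Rpl11: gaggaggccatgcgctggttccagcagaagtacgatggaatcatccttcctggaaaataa
Gm10288: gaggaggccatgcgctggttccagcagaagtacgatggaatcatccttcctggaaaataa
Rpl13a lies at chr7:45125558-45128761 (minus strand) and Gm11478 at chr11:86630428-86631026 (minus strand).
Rpl13a: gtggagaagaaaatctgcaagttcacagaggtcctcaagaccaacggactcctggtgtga
Gm11478: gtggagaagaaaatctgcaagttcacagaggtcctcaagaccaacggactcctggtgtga
Rpl6 lies at chr5:121204481-121209241 (plus strand) and Gm6136 at chr1:86908793-86909683 (minus strand).
Rpl6: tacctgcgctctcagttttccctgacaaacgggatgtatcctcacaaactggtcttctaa
Gm6136: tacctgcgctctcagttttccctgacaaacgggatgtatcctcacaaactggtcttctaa
Each copy had 0 differences from its gene over the bases shown, so a read from this stretch cannot be told apart by its letters. The annotated transcripts run on past the stop codon, and how many reads came from the stretches shown was not tested. Over the last 300 bases of the annotated transcript, stretches of 75 bases found in no other transcript searched made up 100% for Rpl11, Rpl13a and Rpl6 and 21.2% for Rpl23a. The transcripts of Rpl11, Rpl13a and Rpl6 run 256, 388 and 307 bases past the stop codon, and that of Rpl23a 48. A copy annotated only over the coding part cannot match there. These shares therefore do not show that reads of a gene and its copies can be separated. The sources used here do not state how reads that fit several places were counted.

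Taken on the genes alone, 80 of the 83 genes had 20 or more counts over both libraries, and 76 had 1000 or more. The other 3, the tissue-restricted copies Rpl39l, Rpl3l and Rpl10l, had 2, 1 and 1 vehicle counts and 1, 2 and 2 AZD7986 counts. Ribosomal protein genes together held 2.45% of all vehicle counts (exact interval 2.44 to 2.46) and 2.61% of AZD7986 counts (2.60 to 2.62). With mitochondrial transcripts left out of the totals, the shares were 2.70% and 2.83%. The ratio of the summed normalized counts was 1.12 [1.12, 1.13].

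The order of the genes by count was nearly the same in both pools, with a Spearman rho of 0.979 over the 79 genes with 100 or more counts. Both libraries rank the same genes, so this coefficient describes the table and carries no p. The median log2 ratio over the 80 genes was 0.16, a ratio of 1.12, with 62 genes above 0 and 18 below. A total of 59 lay within 0.32 of 0 on the log2 scale. Apart from Rpl23a, the ratios ran from -0.26 (Rpl6) to 0.68 (Rpl36) on the log2 scale. The SD of the log2 ratios over the 79 genes was 0.19, while counting error alone would give 0.056, so the genes differed among themselves by more than their counting error.

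**Figure D1:**
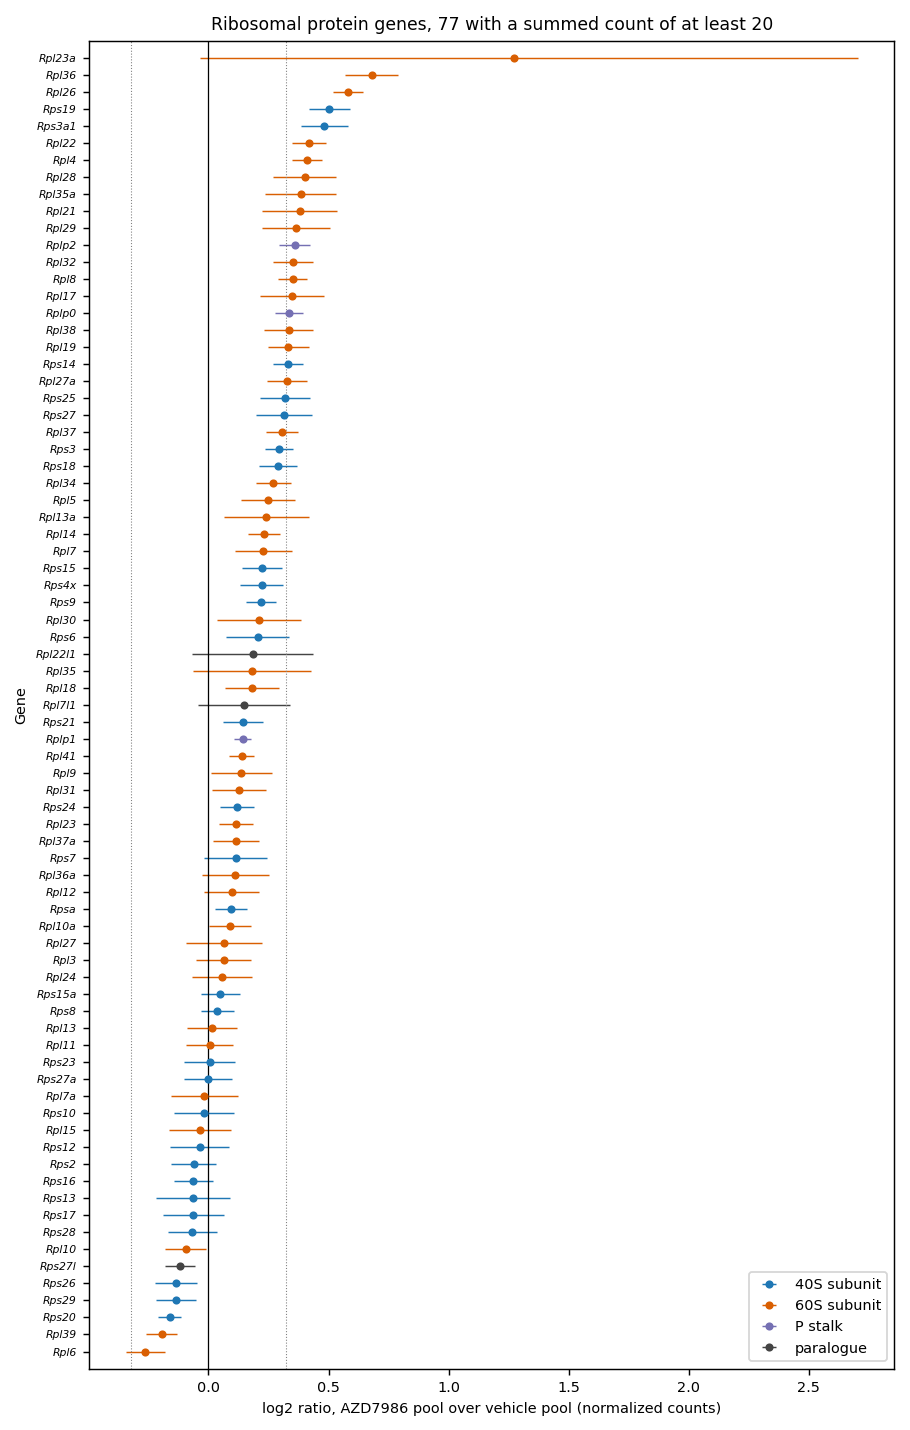
The log2 ratio of the AZD7986 pool over the vehicle pool is plotted for 77 of the genes with 20 or more counts, with bars for the exact 95% counting interval, colours for the subunit and dotted lines at 0.32 on either side of 0. Most points lie between -0.26 (Rpl6) and 0.68 (Rpl36), and the single wide bar belongs to Rpl23a with 8 and 16 counts.

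A gene was counted as higher, or as lower, when its log2 ratio was at least 0.32 away from 0 (a ratio of 0.8 or less on the lower side) and its interval excluded 1. By this rule 20 of the 80 genes (25%) were higher, where 13.4% of all 13523 genes with the same minimum count were, and 0 were lower, where 12.5% of all genes were. Ribosomal protein genes are among the most counted in liver, and the share of higher genes depends on the count. Among all 1830 genes with 1000 or more counts, 30.7% were higher and 7.49% lower, and of the 76 ribosomal protein genes in that range 26.3% were higher and 0 lower. With size factors the share of higher genes was thus near that of other abundant genes. By the interval alone, 47 ribosomal protein genes lay above 1 and 7 below it, where 17.9% and 15.1% of all genes, and 54.1% and 18.9% of genes with 1000 or more counts, did. At 2-fold or more, 0 ribosomal protein genes were higher and 0 were lower, where 1.83% and 2.88% of all genes were, and 1.15% and 0.219% of those with 1000 or more counts.

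Beside other abundant genes the ribosomal protein genes had the same centre and a narrower spread. Among the 1486 other protein-coding genes in that range, the median log2 ratio was 0.14, the SD 0.36 and the 5th to 95th percentile -0.43 to 0.72. Among the 76 ribosomal protein genes, the median was 0.14, the SD 0.20 and the 5th to 95th percentile -0.13 to 0.43. The difference in width is a description of these 2 libraries and was not tested.

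**Figure D2:**
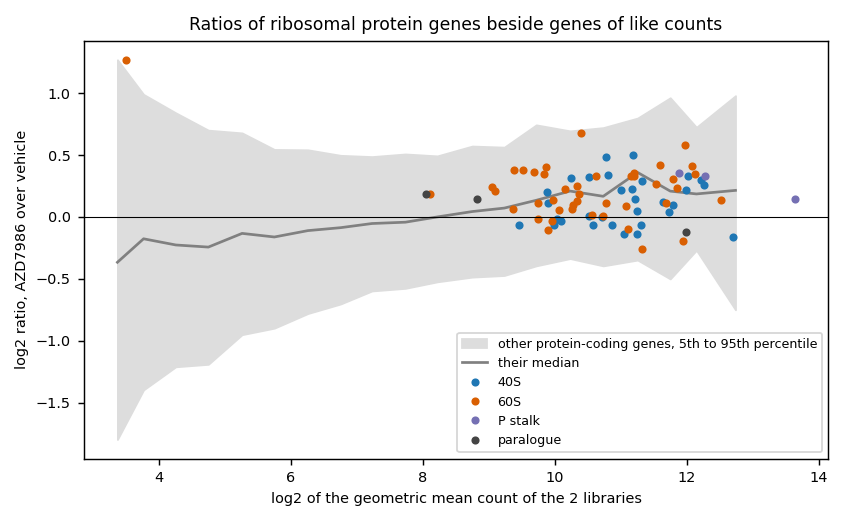
Each point is a ribosomal protein gene, with the log2 of its geometric mean count on the x axis and its log2 ratio on the y axis, over the 5th to 95th percentile (grey band) and the median (grey line) of other protein-coding genes in bins of count. Most points lie inside the band, and above about 1000 summed counts both the line and the points lie mostly above 0.

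The scaling decided how many genes passed the 0.32 rule. With each library scaled by its total instead of by size factors, every log2 ratio was lower by 0.079, 6 genes (7.5%) were higher and 1 was lower, beside 9.52% and 16.9% of all genes and 21.4% and 10.6% of genes with 1000 or more counts. With no scaling 1 gene was higher, 13 (16.2%) were lower and the median log2 ratio was -0.11, beside 3.96% and 31.6% of all genes and 9.18% and 25.8% of genes with 1000 or more counts. With library totals and with no scaling, the shares of higher and of lower genes were thus both below those of genes with 1000 or more counts.

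In the 40S subunit the 31 genes of the core set had a median log2 ratio of 0.11, and 4 (12.9%) were higher by the 0.32 rule and 0 lower. Among all genes 13.4% were higher and 12.5% lower, and among those with 1000 or more counts 30.7% and 7.49%. Rps19, in human the gene most often mutated in Diamond-Blackfan anaemia, had 2136 vehicle and 2509 AZD7986 counts, the highest ratio of the subunit at 1.42 [1.34, 1.503]. Rps3a1 had 1626 and 1883 counts and a ratio of 1.40 [1.31, 1.49]. Rps14 had 4063 and 4232 counts and a ratio of 1.26 [1.20, 1.31]. In these 3 genes the interval lay above 1, and the raw count was also larger in the smaller AZD7986 library.

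Abundant 40S genes were spread around the median. Rps20, a protein of the head of the subunit, had 7720 vehicle and 5717 AZD7986 counts and the lowest ratio of the subunit, 0.894 [0.864, 0.925]. Rps3, at the entry of the mRNA channel, had 4719 and 4799 counts and a ratio of 1.23 [1.18, 1.28]. The intervals of Rps20 and Rps3 do not overlap, the former below 1 and the latter above it.

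Low ratios were also seen for Rps29 (2786 and 2101 counts, 0.910 [0.860, 0.964]) and for Rps26 (2447 and 1848 counts, 0.911 [0.858, 0.969]). Rps26 contacts the mRNA just before the start codon. Neither passed the 0.32 rule, although their intervals lay below 1. With matched pseudogenes added, Rps29 turned to 1.02 [0.993, 1.06], Rps26 was at 0.965 [0.920, 1.01] and Rps20 at 0.956 [0.928, 0.984].

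For 4 members with roles beyond the core of the subunit, the intervals on the genes alone overlap. Rps6, the classical target of S6 kinase downstream of mTORC1, had 970 and 927 counts and a ratio of 1.15 [1.05, 1.26]. Rps27a, made as a fusion with ubiquitin, had 1848 and 1530 counts and a ratio of 0.999 [0.933, 1.07]. Rpsa, also known as the laminin receptor precursor, had 3747 and 3315 counts and a ratio of 1.07 [1.02, 1.12]. Rps7, which can bind Mdm2, had 1006 and 902 counts and a ratio of 1.08 [0.988, 1.19]. In the vehicle library Rps6 held 15.3%, Rps27a 25.9%, Rpsa 36.9% and Rps7 17.4% of the counts of their families. With matched pseudogenes added, Rps6 was at 1.18 [1.14, 1.22] and Rps27a at 1.03 [0.991, 1.06]. Rpsa was then at 1.14 [1.11, 1.17] and Rps7 at 1.14 [1.10, 1.18], so the interval of Rps27a lay below the others. None of these 4 passed the 0.32 rule with or without pseudogenes.

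In the 60S subunit the 46 genes, P stalk included, had a median log2 ratio of 0.22, with 16 (34.8%) higher by the 0.32 rule and 0 lower. Among all genes 13.4% were higher and 12.5% lower, and among those with 1000 or more counts 30.7% and 7.49%. With the paralogues counted to their subunits, the medians were 0.20 over 48 genes of the 60S and 0.10 over 32 genes of the 40S, a difference of 0.093. As a share of all counts on ribosomal protein genes, the 40S set held 41.7% in the vehicle library (exact interval 41.5 to 41.9) and 40.5% in the AZD7986 library (40.3 to 40.7). The intervals do not overlap, so the balance moved by more than counting error between these 2 libraries, and the difference between subunits was not tested.

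Rpl36 had the highest ratio of the 79 well-counted genes, with 1172 vehicle and 1555 AZD7986 counts, 1.60 [1.48, 1.73]. Rpl26, which in human cells binds the p53 messenger, had 3613 and 4478 counts and a ratio of 1.496 [1.43, 1.56]. Rpl22, needed for the development of αβ T cells in mice, had 2945 and 3261 counts and a ratio of 1.34 [1.27, 1.41]. The intervals of Rpl36 and Rpl26 overlap, and both lie above that of Rpl22.

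At the low end, Rpl6 had 3061 vehicle and 2114 AZD7986 counts, 0.834 [0.788, 0.881], the lowest of all well-counted members. Rpl39, a small protein of the exit tunnel, had 4620 and 3344 counts and a ratio of 0.874 [0.835, 0.914]. For Rpl6 and Rpl39 the interval lay below 1 while the ratio stayed above 0.8. With matched pseudogenes added, Rpl6 was at 0.962 [0.929, 0.995], and Rpl39 turned to 1.06 [1.02, 1.09].

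Among the 60S proteins with known duties, Rpl3, which helps to shape the peptidyl transferase centre, had 1322 and 1144 counts and a ratio of 1.04 [0.964, 1.13]. Rpl10, added last to the 60S subunit before it takes part in translation, had 2501 and 1941 counts and a ratio of 0.937 [0.882, 0.994]. Rpl38, required in mice for the translation of Hox messengers, had 1537 and 1605 counts and a ratio of 1.26 [1.17, 1.35]. On the genes alone, only Rpl38 of these 3 passed the 0.32 rule. With matched pseudogenes added, Rpl3 also passed it at 1.28 [1.23, 1.33], having held 28.0% of its family in the vehicle library, Rpl10 turned to 1.05 [1.02, 1.07], and Rpl38 was at 1.34 [1.30, 1.39]. Rpl41, the smallest ribosomal protein, had 6127 and 5588 counts and a ratio of 1.10 [1.06, 1.14].

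Rpl5 and Rpl11 travel together with the 5S ribosomal RNA and, when ribosome assembly fails, bind Mdm2 and so release p53. Rpl5 had 1298 and 1276 counts and a ratio of 1.19 [1.10, 1.28], while Rpl11 had 1867 and 1552 counts and a ratio of 1.003 [0.937, 1.07]. Rpl13a, which after interferon-γ can leave the ribosome and silence messengers in human cells, had only 536 and 525 counts and a ratio of 1.18 [1.05, 1.34]. These values rest on a small part of the counts of their families, as Rpl5 held 26.1%, Rpl11 23.5% and Rpl13a 6.00% in the vehicle library. With matched pseudogenes added, Rpl5 was at 1.21 [1.17, 1.26], Rpl11 at 1.37 [1.33, 1.41] and Rpl13a at 1.51 [1.47, 1.55], so Rpl11 then lay above Rpl5.

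In the P stalk, Rplp0 and Rplp2 passed the 0.32 rule and Rplp1 did not. Rplp1 was the most counted ribosomal protein gene of both libraries, with 13262 vehicle and 12132 AZD7986 counts, a ratio of 1.10 [1.08, 1.13]. Rplp0, a common reference gene in PCR, had 4828 and 5044 counts and a ratio of 1.26 [1.21, 1.31]. Rplp2 had 3648 and 3875 counts and a ratio of 1.28 [1.23, 1.34]. The intervals of Rplp0 and Rplp2 overlap and both lie above that of Rplp1. With matched pseudogenes added this order did not hold, at 1.13 [1.10, 1.17] for Rplp0, 1.18 [1.16, 1.20] for Rplp1 and 1.27 [1.21, 1.33] for Rplp2, and Rplp0 no longer passed the rule. Tag counts from the 3′ end carry 1 tag a transcript whatever its length, so the levels of these genes can be set side by side as CPM: 1732 and 1811 for Rplp1, 630 and 753 for Rplp0, and 476 and 578 for Rplp2. Pseudogenes limit this comparison, since Rplp1 held 73.3%, Rplp0 65.9% and Rplp2 94.5% of the vehicle counts of their families.

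Paralogues are further genes of the genome that resemble a ribosomal protein gene, most of them with a protein of their own. The messengers of Rps27 and Rps27l differ enough to be told apart, as the last 120 coding bases show, with the positions that differ between them in capitals (GENCODE M21, mm10, Rps27 at chr3:90212522-90213651 on the minus strand, Rps27l at chr9:66946086-66949516 on the plus strand).
Rps27: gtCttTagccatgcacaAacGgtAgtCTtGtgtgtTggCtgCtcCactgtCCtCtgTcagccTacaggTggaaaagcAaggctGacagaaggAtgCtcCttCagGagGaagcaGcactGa
Rps27l: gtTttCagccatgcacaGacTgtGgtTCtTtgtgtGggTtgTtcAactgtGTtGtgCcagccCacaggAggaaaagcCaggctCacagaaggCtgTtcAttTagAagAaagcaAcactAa
There were 28 differences in this stretch. Rps27l, a p53 target in human cells, had 4640 vehicle and 3542 AZD7986 counts, while Rps27 had 1192 and 1228. Rps27l thus made up 79.6% of the pair in the vehicle library (exact interval 78.5 to 80.6) and 74.3% in the AZD7986 library (73.0 to 75.5), and these intervals do not overlap. Rps27 itself held only 20.1% and 19.0% of the counts of its own pseudogene family. With matched pseudogenes added on both sides, Rps27l made up 47.7% (46.7 to 48.6) and 40.7% (39.8 to 41.7), so its majority rested on the counts of the genes alone while the lower share with AZD7986 did not.

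In the other pairs the intervals of the paralogue's share overlapped between the pools. Rpl22l1, the paralogue of Rpl22, held 8.46% of its pair (272 counts) in the vehicle library and 7.28% (256 counts) in the AZD7986 library. Rpl7l1 held 28.8% (471 counts) and 27.7% (432 counts) beside Rpl7. With matched pseudogenes added on both sides, Rpl22l1 made up 20.6% and 18.6%, and Rpl7l1 8.45% and 7.86%. The size of these shares thus depended on where pseudogene counts were placed. Rpl36al, which shares its protein family with Rpl36a and lies outside the name pattern, held 52.4% and 52.3%. Rpl36a itself held only 18.7% and 15.4% of the counts of its own pseudogene family, and the share of Rpl36al with pseudogenes added was not computed. Rps4l, typed as a transcribed pseudogene beside Rps4x, held 5.47% and 6.18%. The ratios of Rpl22l1 (1.14 [0.954, 1.35]) and Rpl7l1 (1.11 [0.969, 1.26]) had intervals that include 1. Rpl39l, Rpl3l and Rpl10l each held under 1% of their pairs, with at most 2 counts a library.

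Much of what was counted for ribosomal proteins lay on pseudogenes. By sequence, 1220 copies matched a ribosomal protein gene (at least 85% identity over at least 50% of its coding sequence), and 945 of them carry only a Gm symbol. Of these copies 6 are typed as protein-coding, with symbols that end in -ps and a number or in rt, and are counted with the pseudogenes here. They were assigned to 80 of the 83 genes, and Rpl8, Rpl3l and Rpl39l had none. A gene and its matched pseudogenes are called a family here. Pseudogenes held 62.4% of the counts of all families in the vehicle library and 64.4% in the AZD7986 library. With them, ribosomal protein families made up 6.52% and 7.33% of the libraries. In 59 of the 80 well-counted genes the gene itself held under 50% of the family's vehicle counts.

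**Figure D3:**
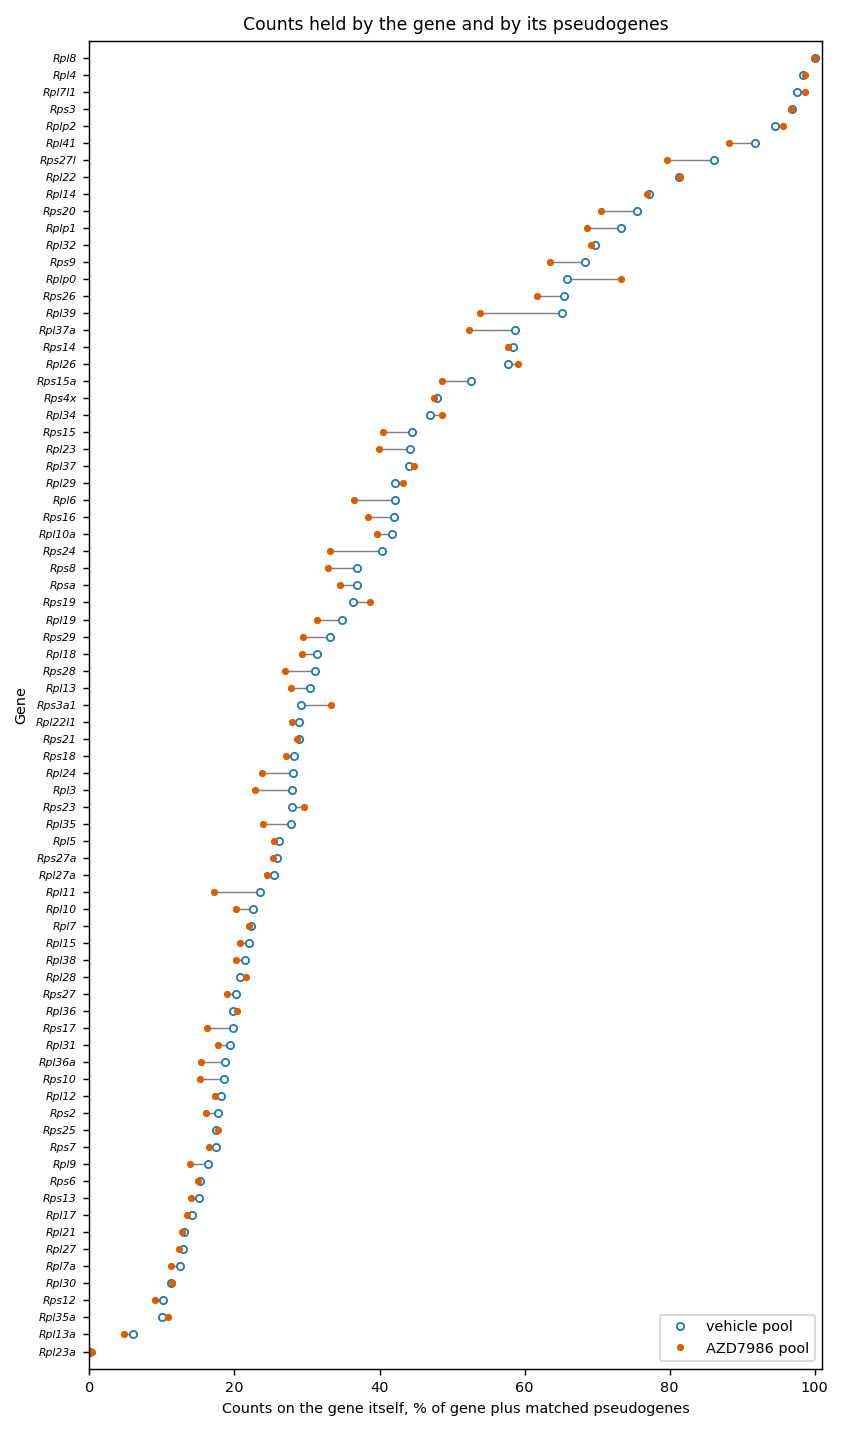
For each of 77 genes, the x axis gives the counts on the gene itself as a percentage of the gene plus its matched pseudogenes, in the vehicle pool (open circles) and the AZD7986 pool (filled circles). The share runs from 100% (Rpl8) to under 1% (Rpl23a) and, over all 80 genes, is lower in the AZD7986 pool for 59 and higher for 20.

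The clearest case is Rpl23a, a protein at the mouth of the exit tunnel. The gene itself had 8 vehicle and 16 AZD7986 counts, which gave the highest ratio of the set, 2.41 [0.975, 6.51], with an interval that includes 1. Its family of 40 pseudogenes and the gene had 5492 and 5388 counts, so the gene itself held 0.146% and 0.297% of them. Among its copies Rpl23a-ps3, shown above, had 994 and 987 counts, Gm10335 had 863 and 868, and Gm3362 had 706 and 739. The log2 ratio of the family was 0.24, close to that of other ribosomal protein families.

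For Rpl11 the gene and the family gave different values. The gene had a log2 ratio of 0.00, while its copy Gm10288 had 3855 vehicle and 4503 AZD7986 counts, and the family (7943 and 9023 counts) had a log2 ratio of 0.46. The gene held 23.5% of the family in the vehicle library and 17.2% in the AZD7986 library. For Rpl13a, Gm11478 had 6162 and 7922 counts against 536 and 525 on the gene, and the family's log2 ratio was 0.59 where the gene's was 0.24. For Rpl6 the family's log2 ratio was -0.06 where the gene's was -0.26, with Gm6136 at 1955 and 1558 counts. So the lowest gene of the set was close to no difference as a family, and Rpl11 moved from no difference to among the higher ones.

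Some genes hardly changed when pseudogenes were added, because most counts were on the gene. Rpl4, which lines the exit tunnel, held 98.4% of its family and had a log2 ratio of 0.41 with and without it. Rpl8 had no matched pseudogene, with 4348 and 4596 counts and a ratio of 1.28 [1.22, 1.33]. Rpl22 held 81.3% of its family and kept a log2 ratio of 0.42. Rpl36, though it held only 19.8%, had a family log2 ratio of 0.64 beside 0.68 for the gene.

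Over the 80 families the median log2 ratio was 0.24 with an SD of 0.15, beside 0.16 and 0.23 for the genes alone. Without the rarely counted Rpl23a, the genes alone had a median of 0.15 and an SD of 0.19. The family ratios ran from -0.08 (Rps23) to 0.64 (Rpl36). By the 0.32 rule 27 of the 80 families were higher and 0 were lower. Most families had 1000 or more counts, a range in which 30.7% of all genes were higher and 7.49% lower. Of the matched pseudogenes in that range 40.4% were higher. In 59 families the ratio was higher than that of the gene, and in 20 it was lower, among them Rplp0 (0.18 for the family, 0.33 for the gene) and Rps3a1 (0.29 for the family, 0.48 for the gene).

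**Figure D4:**
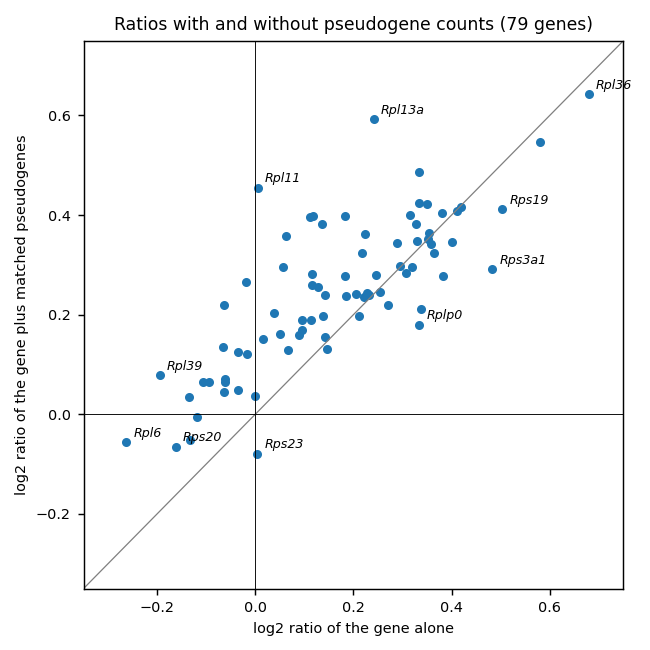
Each point is 1 of 79 genes (Rpl23a is left out), with the log2 ratio of the gene alone on the x axis and that of the gene plus its matched pseudogenes on the y axis, and the diagonal marks equal values. Most points lie above the diagonal, Rpl11 (0.00 and 0.46) and Rpl13a (0.24 and 0.59) far above it, and Rplp0 and Rps3a1 below it.

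Of the matched pseudogenes, 767 had 20 or more counts, with a median log2 ratio of 0.30. By the 0.32 rule 262 of them (34.2%) were higher and 14 were lower, and at 2-fold 30 were higher and 3 lower. Of all genes with 20 or more counts, 13.4% were higher and 12.5% lower by that rule, and 1.83% and 2.88% at 2-fold. Pseudogenes not matched to a ribosomal protein gene, whose parents were not assigned, gave values like those of the matched copies. Their median log2 ratio was 0.39 over 739 of them, with 32.3% higher. The difference from the ribosomal protein copies was not tested. Whether the pseudogene counts are transcripts of the copies or reads of the genes placed on them cannot be told apart in these counts.

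Among pseudogenes named after a ribosomal protein gene, 272 were in the table and 214 had 20 or more counts, with a median log2 ratio of 0.28. By the 0.32 rule 77 (36.0%) were higher and 3 (1.40%) lower, where 13.4% and 12.5% of all genes were. The most counted were Rps10-ps1 (4302 and 4496 counts), Rps25-ps1 (2763 and 2712), Rps16-ps2 (2696 and 2412), Rps13-ps2 (2766 and 2318) and Rpl10a-ps1 (2572 and 2488). The largest differences with an interval that excludes 1 were in rarely counted copies, Rpl23a-ps5 with 24 and 5 counts, Rpl31-ps15 with 15 and 31, and Rpl36-ps9 with 13 and 24.

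A list of 8 genes of ribosomal proteins or their copies fell outside the name pattern, and 7 had 20 or more counts, with a median log2 ratio of 0.35. By the 0.32 rule 4 of these 7 were higher, where 13.4% of all genes and 30.7% of those with 1000 or more counts were. The median was 0.35 also over the 5 of them that are typed as protein-coding, which is the value of Rps27rt. Rps27rt and Rpl9-ps6 have symbols of the kind counted with the pseudogenes above. The log2 ratios of the others were 0.53 for Fau, 0.11 for Rack1 and 0.11 for Rpl36al. Fau, which encodes the 40S protein Rps30 fused to a ubiquitin-like part, had 2510 and 3001 counts and a ratio of 1.44 [1.37, 1.52]. Rpl9-ps6, typed as protein-coding, had 2396 and 2548 counts and a ratio of 1.28 [1.21, 1.36], and Rps3a3, typed as a processed pseudogene, had 533 and 583 and a ratio of 1.32 [1.17, 1.49]. Rack1, a scaffold on the 40S head, had 4951 and 4441 counts and a ratio of 1.08 [1.04, 1.13].

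Most other lists of the translation machinery were centred lower than the ribosomal proteins, with all genes at a median log2 ratio of -0.02. Most were also counted less than the ribosomal protein genes, whose median summed count was 3514.5. The median summed count was 1582 for elongation factors and other TOP messengers, 855 for initiation factors and 371 for the mTORC1 list. It was 253 for ribosome biogenesis and 147.5 for polymerase I and III transcription. The median log2 ratio was 0.16 over genes with 1000 or more counts. The part of the count in the differences between lists was not tested. Elongation factors and other messengers with a TOP motif (20 genes) had a median log2 ratio of 0.07, with 2 (10%) higher and 4 (20%) lower. Among all genes the shares were 13.4% and 12.5%, and among those with 1000 or more counts 30.7% and 7.49%. Eef2, which moves the ribosome along the messenger, had 4273 and 4627 counts and a ratio of 1.31 [1.253, 1.36], Tpt1 had 4750 and 4251 and a ratio of 1.08 [1.04, 1.13], and Eef1b2 had 3267 and 2841 and a ratio of 1.05 [0.998, 1.10]. The poly(A)-binding protein gene Pabpc1 had 1872 and 1104 counts and a ratio of 0.712 [0.660, 0.767], and the splicing factor gene Hnrnpa1 had 450 and 265 and a ratio of 0.711 [0.608, 0.829]. Vim, the intermediate filament of mesenchymal cells, had 833 and 353 counts and a ratio of 0.511 [0.450, 0.580]. The genes of this list named here therefore did not share 1 direction in these libraries.

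Initiation factors (29 genes) had a median log2 ratio of 0.07, with 4 higher and 1 lower. These were 13.8% and 3.45% of the list, where 13.4% and 12.5% of all genes were higher and lower. The share of higher genes was thus near that of all genes. Eif5a was the most counted (3375 and 3118 counts, ratio 1.11 [1.06, 1.17]), and the largest differences were in Eif2b4 (183 and 240 counts, 1.58 [1.30, 1.93]), a subunit of the exchange factor of eIF2, and Eif5b (514 and 647 counts, 1.52 [1.35, 1.71]), which joins the subunits. Eif4a1, the helicase that unwinds the start of messengers, had 1620 and 1470 counts, Eif4g2 had 1712 and 1374, and Eif2b5 had 178 and 212, with ratios of 1.10 [1.02, 1.18], 0.969 [0.902, 1.04] and 1.44 [1.17, 1.76].

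Ribosome biogenesis genes (65) had a median of 0.04, with 8 higher and 4 lower. Ncl, the nucleolar protein nucleolin, had 1418 and 1134 counts and a ratio of 0.965 [0.892, 1.04], Heatr3, which brings Rpl5 into the nucleus, had 154 and 211 and a ratio of 1.65 [1.34, 2.05], and Utp4, of the small-subunit processome, had 91 and 42 and a ratio of 0.557 [0.377, 0.811]. Aamp (818 and 699 counts) and Nop10 (740 and 560) were the next most counted, with intervals that include 1, and the kinase gene Riok2 had 128 and 66 counts and a ratio of 0.622 [0.455, 0.844]. The list of biogenesis genes thus held calls in both directions, in shares (12.3% and 6.15%) below those of all genes.

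Genes of RNA polymerase I and III transcription (26) had a median log2 ratio of 0.18, with 4 higher and 3 lower. These were 15.4% and 11.5% of the list, near the 13.4% and 12.5% of all genes. Among the lower was Myc, with 76 and 39 counts and a ratio of 0.619 [0.410, 0.923]. Polr3a, the largest subunit of polymerase III, had 54 and 25 counts and a ratio of 0.559 [0.333, 0.913], and Cd3eap, a polymerase I subunit, had 64 and 86 and a ratio of 1.62 [1.16, 2.28]. The most counted were Polr1d (774 and 642), Polr3k (257 and 226) and Ubtf (258 and 180), whose intervals include 1.

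The mTORC1 pathway with the TOP repressors (33 genes) had a median of -0.00, with 4 higher and 3 lower. These were 12.1% and 9.09% of the list, both below the 13.4% and 12.5% of all genes. Larp1, which binds the TOP motif and holds these messengers back, had 372 and 194 counts and a ratio of 0.629 [0.526, 0.751]. Lamtor2 and Lamtor4, of the complex that anchors mTORC1 at lysosomes, had ratios of 1.52 [1.33, 1.73] and 1.42 [1.28, 1.57]. Cnbp, which binds pyrimidine-rich messenger starts, had 1243 and 1245 counts and a ratio of 1.21 [1.12, 1.31], Deptor, an inhibitor of mTOR, had 1062 and 1021 and a ratio of 1.16 [1.06, 1.27], and Castor2 had 20 and 32 and a ratio of 1.93 [1.07, 3.56].

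The Mdm2 and p53 list, through which ribosomal proteins signal assembly stress, had a median of -0.07 over 12 genes. By the 0.32 rule 1 (8.33%) was higher and 4 (33.3%) were lower, where 13.4% and 12.5% of all genes were. Over the genes of the list with 100 or more counts alone, the median turned to 0.12. Trp53 had 65 vehicle and 23 AZD7986 counts, a ratio of 0.427 [0.253, 0.697]. Mdm2 had 253 and 191 counts and a ratio of 0.911 [0.751, 1.10], and the p53 targets Ccng1 (356 and 307 counts, 1.04 [0.891, 1.22]) and Bax (219 and 229 counts, 1.26 [1.04, 1.53]) were not lower. Cdkn1a, the p53 target that halts the cell cycle, was lower at 226 and 128 counts (0.684 [0.546, 0.853]). Phlda3 (44 and 19 counts, 0.521 [0.287, 0.911]) and Eda2r (16 and 4 counts, 0.302 [0.073, 0.935]), also p53 targets, were lower. Trp53 and its targets did not share 1 direction.

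Ribosomal proteins of mitochondria, made from 77 nuclear genes (75 with 20 or more counts), had a median log2 ratio of 0.22, close to that of the cytosolic 60S genes. Among them 21 (28.0%) were higher by the 0.32 rule and 0 were lower. The shares were 13.4% and 12.5% of all genes, and 30.7% and 7.49% of those with 1000 or more counts. Mrpl52 had 1571 and 1513 counts, Mrpl12 1349 and 1529, and Mrpl33 987 and 1034, with ratios of 1.16 [1.08, 1.248], 1.37 [1.27, 1.47] and 1.26 [1.16, 1.38]. The largest differences were in Mrpl9 (89 and 127 counts, 1.72 [1.30, 2.28]), Mrpl14 (878 and 1091, log2 ratio 0.58) and Mrpl41 (259 and 313, 1.46 [1.23, 1.73]).

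**Figure D5:**
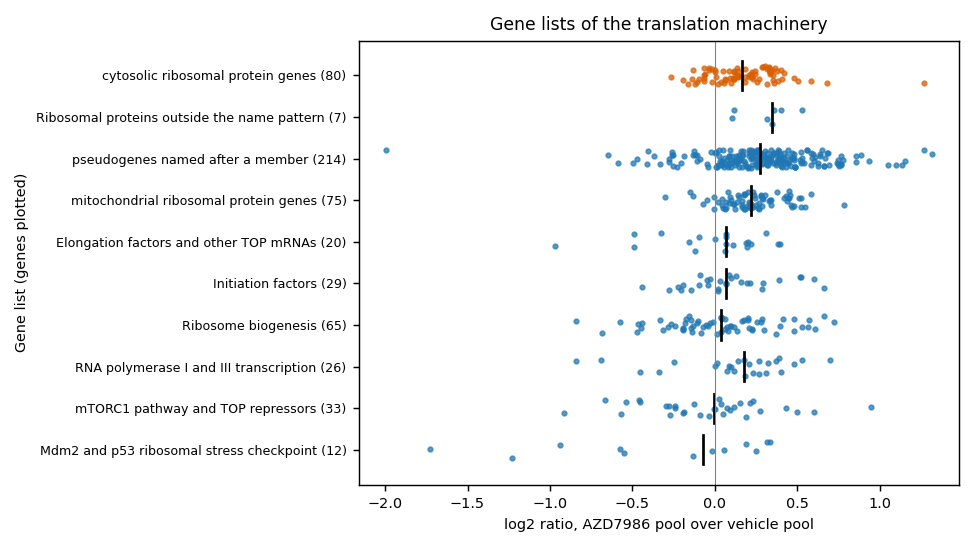
The log2 ratio of each gene with 20 or more counts is plotted for the cytosolic ribosomal protein genes (orange) and for other lists of the translation machinery (blue), with a black bar at the median of each list and random vertical spread. The cytosolic ribosomal protein genes centre on 0.16, mitochondrial ones on 0.22 and the biogenesis genes on 0.04 with a wider spread.

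RefSeq promoter sequences (GRCm38.p6) were found for 63 of the 83 genes, in 75 entries that differ in their start. The bases from 20 before to 25 after the annotated start are shown for the 3 genes of lowest and the 3 of highest ratio among those with 100 or more counts and a single entry, since the TOP tract lies at the start. Capitals mark CTTTC or CTTCC, letters of a pyrimidine tract, on the strand of the gene.
Rpl6: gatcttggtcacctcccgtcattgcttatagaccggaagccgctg
Rpl39: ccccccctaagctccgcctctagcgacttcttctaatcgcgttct
Rps26: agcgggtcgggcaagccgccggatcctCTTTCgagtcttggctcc
Rpl4: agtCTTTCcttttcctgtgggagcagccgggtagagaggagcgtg
Rps3a1: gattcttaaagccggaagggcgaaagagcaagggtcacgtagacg
Rpl26: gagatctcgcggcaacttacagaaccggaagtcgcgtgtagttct
Rps26 at the low end and Rpl4 at the high end held the letters in this window. Over all entries CTTTC or CTTCC was found in 41.3% of those of ribosomal protein genes and in 15.0% of all 32851 promoter entries. CCGGAAG or its reverse complement CTTCCGG, the letters of an Ets-type site, searched on both strands over all 300 bases, was found in 36.0% and 8.86%, and CTTCCGG contains CTTCC, so the searches overlap. TATAAA, from 40 to 20 bases before the start, was found in 1.33% and 1.91%.

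These letters did not separate the genes by their ratio. Genes without CTTTC or CTTCC in the window can still carry a pyrimidine tract, so the comparison concerns the letters and not the tract. The median log2 ratio was 0.13 over the 29 genes with CTTTC or CTTCC in the window and 0.14 over the 31 without it. For the Ets-type letters the medians were 0.14 over 25 genes with them and 0.14 over 35 without. A match is a match of letters, and binding was not measured.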

How the data were processed

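Per the labels and methods, the authors sequenced transcript 3′ ends (MACE), removed duplicates by molecular identifiers, trimmed with cutadapt, mapped to mm10 and deposited HTSeq counts. The methods and the labels name different versions of the kit, and as the treatment field is identical for both libraries, groups were taken from the titles. The deposited column headed TPM holds CPM computed by the authors, and a further deposited signal is the count divided by a DESeq2 size factor. The sources used here name no aligner, annotation release or strand setting. A total of 6 columns of per-sample values were not used, and neither were the authors' columns of fold change and significance. Rows with no symbol (3.70% and 3.71% of counts) were kept in the totals.

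Size factors came from DESeq2 1.42.0 (R 4.3.3), TMM from edgeR 4.0.16. Ratios and exact 95% intervals were computed in Python 3.11.15 with scipy 1.17.1 and pandas 2.3.3 over genes with 20 or more counts in both libraries together. A count of 0 was set to 1. The intervals were run on counts simulated from the binomial split that they assume. That run checks the computation and not the variation between mice or libraries. Pseudogenes were matched with blastn. With 1 library per group no p-value was computed.

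The members and the gene lists were chosen with earlier results of these data known. Named by rule were paralogues, the P stalk, genes of textbook role, rarely counted genes, and in each subunit the 3 most counted, 3 highest and 3 lowest, and in each other list the 3 most counted and the 3 largest differences whose interval excludes 1. Rpl23a, Rpl4, Rpl8, Rps23 and the Gm copies were chosen after their values were seen. A few genes named by the rule are not reported here and are left out of the plots that label genes, while counts and medians include them.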

Additional observations from a re-analysis of the deposited data

How the results depend on the processing

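No paired analysis was possible because each group has 1 library, and for the same reason no library could be left out. The median log2 ratio of the ribosomal protein genes was 0.17 with TMM, 0.086 with library totals, 0.063 with library totals without mitochondrial transcripts, 0.15 with size factors over genes with 100 or more counts, and reversed to -0.11 with no scaling. It was 0.15 at a minimum count of 50 or 100, 0.18 with no minimum or without the paralogues, 0.22 with pseudogenes named after a gene added and 0.24 with pseudogenes matched by sequence added, an alternative chosen after seeing the data. The 20 genes higher by the 0.32 rule were 6 with library totals, 4 without mitochondrial transcripts and 1 with no scaling, and the 0 lower ones were 1, 1 and 13. The 2-fold counts were 0 under the alternatives run. The difference of 0.093 between 60S and 40S medians was 0.080 at a minimum of 100, 0.11 without paralogues, 0.059 with named and 0.071 with matched pseudogenes added. The library shares of 2.45% and 2.61% were 2.70% and 2.83% without mitochondrial transcripts, 4.09% and 4.50% with named pseudogenes and 2.38% and 2.55% without paralogues. Among 35 named genes, the sign of the log2 ratio changed in 1 with TMM, 2 with library totals, 12 with no scaling and 5 with matched pseudogenes added. The cause of these shifts was not tested.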
